A study of Arabidopsis thaliana with 12 samples.

Results

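AT4G04409 is a pseudogene of 298 bp on the plus strand of *Arabidopsis* chromosome 4 (chr4:2184420-2184717, TAIR10), annotated as a pseudogene of *HTA11*, which encodes a histone H2A. The locus was selected on its higher 24-nt siRNA signal in *pkl-1* than in WT in the libraries described here, so the *pkl-1* values at the locus are a description for which no p-value is given. Its window was the gene with 1000 bp on each side, and the stretch of 10 kb on each side served as context. Of the 24 bins of 100 bp in the window, 13 are in the deposited table of 57094 bins, and of the 180 bins of the context outside the window 15 are. The study's methods name a minimum of 5 RPTM in any plant for bins to be retained, and 436 listed bins did not pass it in any of the 12 libraries. By that rule most bins low in every library would not be listed, and a bin could be listed through *pkl-1* alone.

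Small RNA libraries were sequenced from 2-week-old seedlings, with 3 libraries for each of 4 genotypes in the Col ecotype, *pkl-1*, *nrpd1-3*, *nrpe1-11* and WT. *PKL* encodes a CHD3-type chromatin remodeling factor, *NRPD1* the catalytic subunit of Pol IV and *NRPE1* that of Pol V. Each mutant is represented by 1 allele, no double mutant was analysed here, and the labels number the replicates without saying whether they were grown apart, so the spread between them may be technical. The labels give a 12 h light period, whereas the methods of the paper give a longer one. Values are in RPTM (24-nt reads of a bin per 10000000 mapped reads). The libraries held 5598380 to 12390784 mapped reads, and 3 reads, taken as the limit for a bin without reads, corresponded to 2.42 to 5.36 RPTM. This limit covers counting error only. The listed bins held 13.3% of mapped reads in *pkl-1*, 6.16% in *nrpd1-3*, 9.63% in *nrpe1-11* and 15.95% in WT (means of 3 libraries). The denominator holds reads of all lengths, so a library that has lost most 24-nt siRNAs gives a somewhat higher RPTM to the reads that remain.

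In RNA-directed DNA methylation (RdDM), Pol IV makes short transcripts that RDR2 turns into double-stranded RNA, DCL3 cuts this RNA into 24-nt siRNAs, and AGO4 loaded with them is guided to Pol V transcripts. Long inverted repeats offer another source of double-stranded RNA, because a transcript through both arms can fold back on itself without Pol IV or RDR2. Young plant miRNA genes often derive from inverted copies of protein-coding genes, and their long hairpins can be cut by DCL3 into 24-nt RNAs beside the 21-nt miRNA made by DCL1.

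AT4G04409 lies in such a structure. The 3′ arm of the annotated *MIR841b* precursor (chr4:2184135-2184629) overlaps the pseudogene, and the 5′ arm overlaps AT4G04408, another pseudogene on the minus strand. The first 21 bases of AT4G04409 are those of the annotated miR841b-3p. The mature miR841 sequences from *MIR841b* and from its paralogue *MIR841a* (RefSeq, TAIR10.1) are shown here with the seed, bases 2 to 8, in capitals, because the bins over miR841b carried 64.2% of the window's siRNA in *pkl-1* and 28.4% in WT (shares of the mean sums). The precursor of *MIR841b* is on the plus strand and that of *MIR841a* on the minus strand.
miR841b-5p (chr4:2184325-2184345, plus strand): tACGAGCCactggaaactgaa
miR841b-3p (chr4:2184420-2184440, plus strand): cAATTTCTagtgggtcgtatt
miR841a-5p (chr4:7885393-7885413, minus strand): tACGAGCCacttgaaactgaa
miR841a-3p (chr4:7885296-7885316, minus strand): aTTTCTAGtgggtcgtattca
Both 5p miRNAs have the same seed, and the 3p miRNAs are offset against each other so that their seeds differ. Mature miR841 is annotated with 21 nt, whereas the deposited table counts only reads of 24 nt, so the values of these bins are not levels of the mature miRNA.

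The sequence of AT4G04409 follows, with miR841b-3p in capitals, because it shows that the miRNA stands at the start of the pseudogene (chr4:2184420-2184717, plus strand).
AT4G04409: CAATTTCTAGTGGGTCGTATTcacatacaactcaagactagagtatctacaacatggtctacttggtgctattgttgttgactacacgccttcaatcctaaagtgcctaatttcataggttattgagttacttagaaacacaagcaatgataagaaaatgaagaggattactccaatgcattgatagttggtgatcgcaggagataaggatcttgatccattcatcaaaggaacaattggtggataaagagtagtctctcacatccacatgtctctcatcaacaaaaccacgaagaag
The bin with the highest *pkl-1* level, chr4:2184301-2184400, lies just upstream and holds miR841b-5p, in capitals on the plus strand.
chr4:2184301-2184400: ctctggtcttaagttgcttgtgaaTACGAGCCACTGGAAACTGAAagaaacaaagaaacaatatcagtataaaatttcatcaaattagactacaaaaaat

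A self-alignment of the region with blastn found inverted repeats at the locus. The first, called here the *MIR841b* repeat, spans 796 bp (chr4:2183987-2184782) with arms of 398 bp that were 76.4% identical, and holds AT4G04408, *MIR841b* and AT4G04409. The second, called the downstream repeat, spans 1226 bp (chr4:2185162-2186387) with arms of 613 bp that were 78.5% identical. It overlaps the 5′ part of AT4G04845, a noncoding transcript. By RNAfold the plus-strand sequence of the *MIR841b* repeat folds with a minimal free energy of -400.6 kcal/mol and 78.4% of its bases paired. That of the downstream repeat folds with -610.9 kcal/mol and 83.8% paired. Whether either repeat is transcribed through both arms was not tested. Another inverted repeat within 10 kb, of 298 bp around *MIR3932a* (chr4:2178911-2179208), has no listed bin. The arms of the downstream repeat are illustrated by its bin with the highest *pkl-1* level and the opposite arm, each read in the direction of the first arm, with bases that differ or have no partner in the alignment in capitals (83.2% identity, 17 of 101 aligned columns differing).
chr4:2185601-2185700, plus strand: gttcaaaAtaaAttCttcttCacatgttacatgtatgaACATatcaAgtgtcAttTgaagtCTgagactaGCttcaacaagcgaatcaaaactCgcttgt
chr4:2185859-2185959, minus strand: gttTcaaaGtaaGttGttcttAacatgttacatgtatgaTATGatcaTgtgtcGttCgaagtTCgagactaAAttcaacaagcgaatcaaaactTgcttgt

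**Figure D1:**
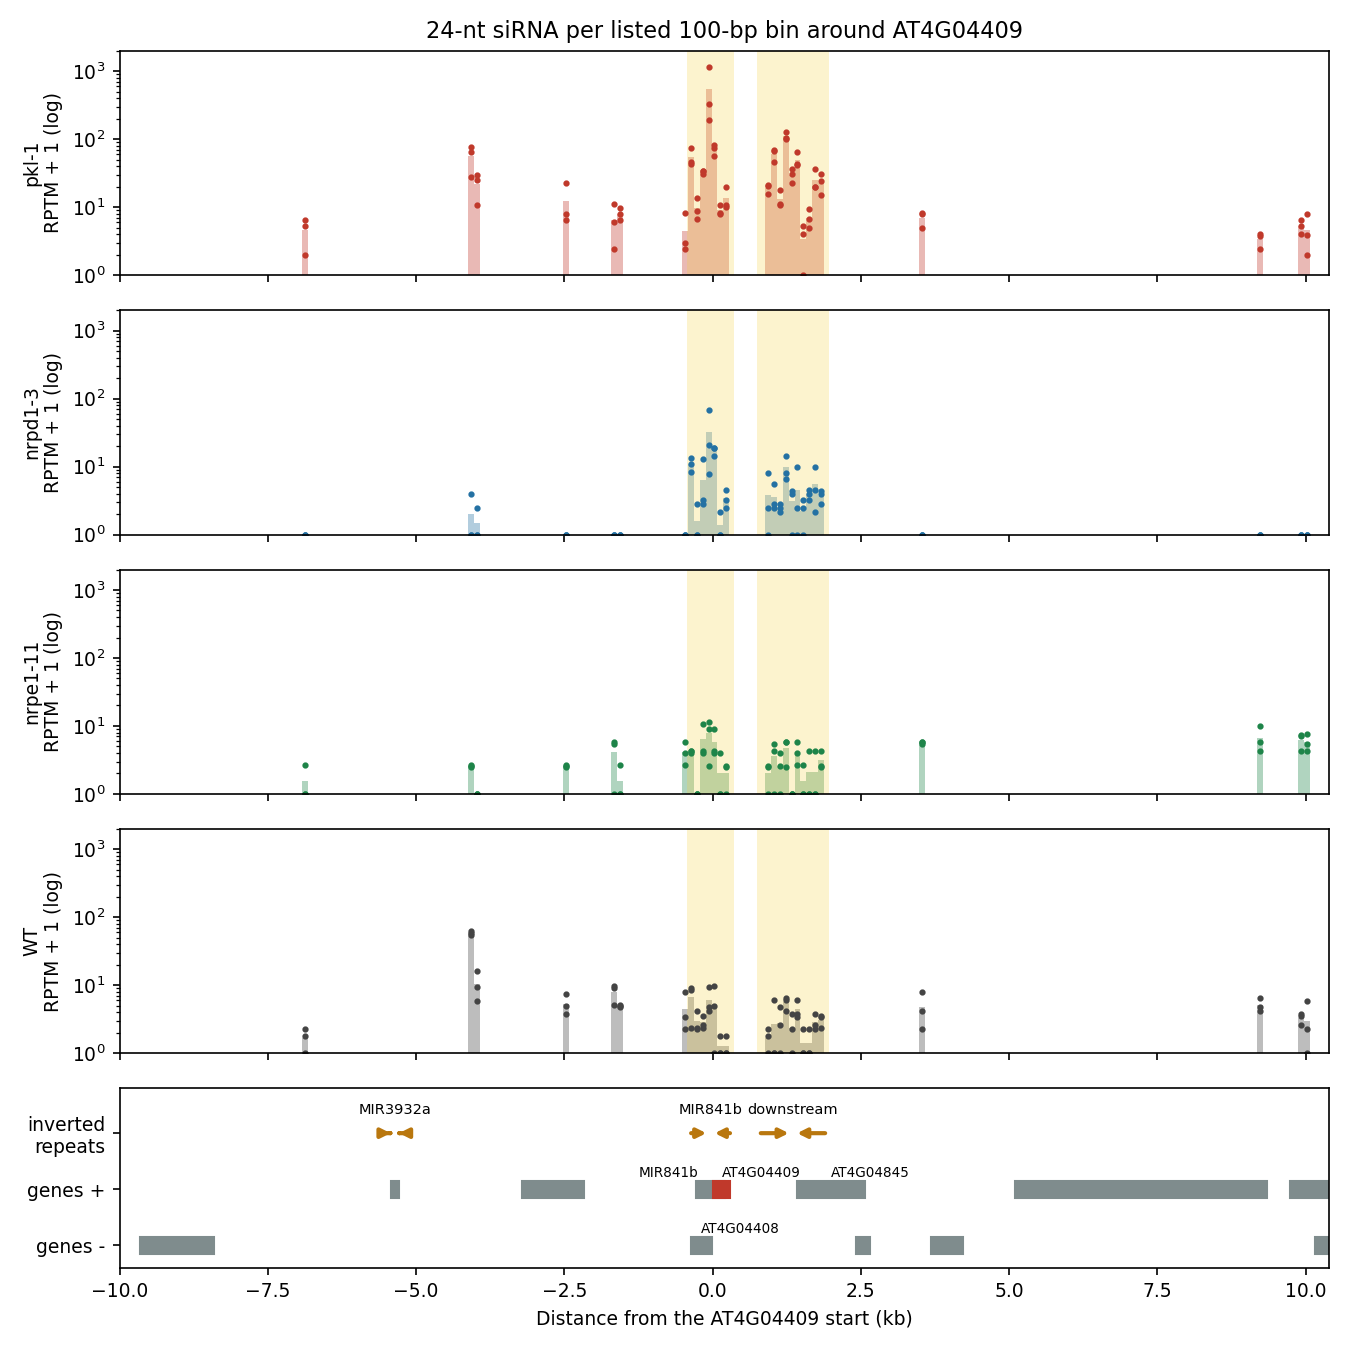
Each of the upper panels plots the 24-nt siRNA level of the 28 listed bins (RPTM + 1, log axis) against the distance from the AT4G04409 start in kb, for *pkl-1*, *nrpd1-3*, *nrpe1-11* and WT, with bars for means and points for the 3 libraries. The bottom panel shows genes by strand (AT4G04409 in red) and inverted repeats (facing arrows), and shading marks the *MIR841b* and downstream repeats, where *pkl-1* means reached 556 RPTM and WT means stayed at or below 5.70 RPTM.

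The siRNA of the AT4G04409 window was many times higher in *pkl-1* than in WT, and it was also present in *nrpd1-3*. Summed over the 13 listed bins, the window had 571, 758 and 1594 RPTM in the *pkl-1* libraries, 54.7, 122 and 75.0 RPTM in *nrpd1-3*, 33.8, 31.1 and 37.6 RPTM in *nrpe1-11* and 29.9, 42.0 and 27.9 RPTM in WT. The *pkl-1* libraries lay above all others, the *nrpd1-3* libraries lay between *pkl-1* and WT without overlapping either, and the *nrpe1-11* and WT libraries overlapped. These sums rest on 528 to 1143 reads per library in *pkl-1*, 42 to 82 in *nrpd1-3*, 19 to 25 in *nrpe1-11* and 20 to 37 in WT. The mean was 974 ± 545 RPTM in *pkl-1*, 83.9 ± 34.5 RPTM in *nrpd1-3*, 34.2 ± 3.28 RPTM in *nrpe1-11* and 33.3 ± 7.62 RPTM in WT (SD, n = 3 each), a ratio of means of 29.3 for *pkl-1* over WT.

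The comparison of *nrpd1-3* with WT asks whether the low siRNA level of the locus in plants with *PKL* changes without Pol IV. It cannot show whether the siRNA gained in *pkl-1* needs Pol IV, because no double mutant was analysed here. The low WT level also left little room for a fall to be seen. On the log2(sum + 1) scale the window was 1.25 higher in *nrpd1-3* than in WT (exact two-sided permutation test, p = 0.1, which is the lowest value possible with 3 libraries per genotype). The difference between *nrpe1-11* and WT was 0.056 (exact two-sided permutation test, p = 0.8). These were 2 of 9 such tests adjusted together, and the Benjamini-Hochberg adjusted p was 0.15 for *nrpd1-3* and 0.8 for *nrpe1-11*. The WT libraries are those that took part in choosing the locus, so a low WT level there is not independent of the choice. When all libraries were scaled to equal totals of 24-nt reads, the difference was 2.60 for *nrpd1-3* and 0.76 for *nrpe1-11* (p = 0.1 each by the exact permutation test). By its construction this scaling raises the values of libraries with lower totals. The listed bins held 6.16% of mapped reads in *nrpd1-3*, 9.63% in *nrpe1-11* and 15.95% in WT, so the larger differences are in part set by the scaling.

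The gene itself covers 4 bins, of which 3 are listed. The first, chr4:2184401-2184500, holds miR841b-3p and had 55.5, 80.4 and 72.5 RPTM in *pkl-1*, 17.9, 13.4 and 17.9 RPTM in *nrpd1-3*, 8.05, 3.27 and 3.01 RPTM in *nrpe1-11* and 4.04, 8.90 and 0 RPTM in WT. Every *nrpd1-3* library was above every WT library at this bin. The bin chr4:2184501-2184600 had 9.91, 7.18 and 6.97 RPTM in *pkl-1* and at most 1 read per library in WT, and chr4:2184601-2184700 had 8.92, 18.7 and 9.76 RPTM in *pkl-1*, again with at most 1 read per library in WT. The signal of the pseudogene therefore lay mainly in its 5′ part, over the miRNA. Summed over the gene body, the level was 89.9 ± 15.9 RPTM in *pkl-1*, 19.2 ± 3.73 RPTM in *nrpd1-3*, 6.82 ± 3.25 RPTM in *nrpe1-11* and 4.85 ± 4.51 RPTM in WT (SD, n = 3 each).

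The opposite arm of the hairpin was the most abundant part of the locus. The bin chr4:2184301-2184400, which holds miR841b-5p, had 188, 332 and 1147.5 RPTM in *pkl-1*, 6.70, 66.9 and 19.6 RPTM in *nrpd1-3*, 1.61, 8.18 and 10.5 RPTM in *nrpe1-11* and 3.23, 3.82 and 8.37 RPTM in WT. The *pkl-1* libraries differed widely among themselves at this bin, which took 33.0%, 43.8% and 72.0% of the window's siRNA in *pkl-1* replicates 1, 2 and 3. Its *pkl-1* mean was 108-fold that of WT, and 50.6-fold without *pkl-1* replicate 3. Ranked by the log2 fold change of *pkl-1* over WT it stood at place 4 of 56658 bins, and 15 bins of the inverted repeats were among the first 613.

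Without this bin the window was much more even between libraries. Its sum was then 383, 426 and 446 RPTM in *pkl-1*, 48.0, 55.0 and 55.4 RPTM in *nrpd1-3*, 32.2, 22.9 and 27.1 RPTM in *nrpe1-11* and 26.6, 38.2 and 19.5 RPTM in WT. The ratio of means was 14.9 for *pkl-1* over WT and 1.88 for *nrpd1-3* over WT, and the groups of each pair still did not overlap. At the bin over most of the miR841a-5p of the paralogue, chr4:7885401-7885500, *pkl-1* replicate 3 and *nrpd1-3* replicate 2 were also the highest of their genotypes, with 33.7, 57.4 and 144 RPTM in *pkl-1*, 36.8, 134 and 39.3 RPTM in *nrpd1-3*, 12.9, 24.5 and 16.5 RPTM in *nrpe1-11* and 24.2, 26.7 and 27.9 RPTM in WT. Over 143 other bins that hold annotated mature miRNAs, the summed 24-nt level was 1.16 times the group mean in both *pkl-1* replicate 3 and *nrpd1-3* replicate 2, and their part in the high values of these libraries was not tested.

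The other bins of the 5′ arm were lower, and *pkl-1* was the highest in each, while the order of the other genotypes varied from bin to bin. The outermost bin of the 5′ arm, chr4:2184001-2184100, had 73.4, 45.9 and 41.8 RPTM in *pkl-1*, 10.05, 7.43 and 12.5 RPTM in *nrpd1-3*, 3.22, 3.27 and 3.01 RPTM in *nrpe1-11* and 8.07, 7.63 and 1.40 RPTM in WT. It lies at the 3′ end of AT4G04408. The next bin, chr4:2184101-2184200, was the lowest of the arm, with 7.93, 5.74 and 12.5 RPTM in *pkl-1*, reads in only 1 *nrpd1-3* library (1.79 RPTM), none in *nrpe1-11* and 3.23, 1.27 and 1.40 RPTM in WT. The bin chr4:2184201-2184300 had 32.7, 30.1 and 33.5 RPTM in *pkl-1*, 2.23, 11.9 and 1.79 RPTM in *nrpd1-3*, 3.22, 9.81 and 3.01 RPTM in *nrpe1-11* and 1.61, 2.54 and 1.40 RPTM in WT. The 5′ arm (4 bins) summed to 650.4 ± 509.6 RPTM in *pkl-1*, 47.0 ± 35.0 RPTM in *nrpd1-3*, 15.3 ± 6.69 RPTM in *nrpe1-11* and 14.7 ± 1.87 RPTM in WT, and the 3′ arm held the 3 gene body bins. The whole repeat of 7 bins summed to 740 ± 511 RPTM in *pkl-1*, 66.2 ± 31.4 RPTM in *nrpd1-3*, 22.1 ± 3.80 RPTM in *nrpe1-11* and 19.5 ± 6.13 RPTM in WT (SD, n = 3 each).

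The remaining bin of the window outside a repeat differed from all of these. At chr4:2183901-2184000, which ends just inside the *MIR841b* repeat but lies mainly before it, *pkl-1* had 1.98, 7.18 and 1.39 RPTM, *nrpe1-11* had 4.83, 1.64 and 3.01 RPTM and WT had 2.42, 1.27 and 6.98 RPTM, while *nrpd1-3* had no reads (limma log2 fold change of *nrpd1-3* over WT -1.98, adjusted p = 0.0062). The call was lost with a pseudocount of 5, with equal 24-nt totals, and without any 1 of the *nrpd1-3* libraries or WT replicate 1 (adjusted p from 0.0101 to 0.0278 in limma).

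The downstream repeat carried the second domain of siRNA, which runs past the end of the window. Its highest bin, chr4:2185601-2185700, had 100.1, 105 and 128 RPTM in *pkl-1*, 5.58, 13.4 and 7.14 RPTM in *nrpd1-3*, 4.83, 4.91 and 1.50 RPTM in *nrpe1-11* and 3.23, 5.09 and 5.58 RPTM in WT. Unlike the miR841b-5p bin, it varied little between the *pkl-1* libraries. The bin chr4:2185401-2185500 had 45.6, 66.0 and 68.3 RPTM in *pkl-1*, 4.47, 1.49 and 1.79 RPTM in *nrpd1-3*, 3.22, 0 and 4.51 RPTM in *nrpe1-11* and 0, 5.09 and 0 RPTM in WT. The bin chr4:2185701-2185800, the last of the window, had 21.8, 30.1 and 34.9 RPTM in *pkl-1* and at most 2.79 RPTM in WT. The first bin beyond the window, chr4:2185801-2185900, had 42.6, 40.2 and 64.1 RPTM in *pkl-1*, 8.93, 1.49 and 0 RPTM in *nrpd1-3*, 4.83, 1.64 and 3.01 RPTM in *nrpe1-11* and 2.42, 5.09 and 2.79 RPTM in WT, so the high *pkl-1* level did not stop at the edge of the window.

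The other 6 bins of the downstream repeat were lower. The *pkl-1* libraries had 14.9, 20.1 and 19.5 RPTM at chr4:2185301-2185400 and 9.91, 10.05 and 16.7 RPTM at chr4:2185501-2185600. The WT libraries were at or below 1.27 RPTM at the first of these and at or below 3.82 RPTM at the second. These bins were low in WT and several times higher in every *pkl-1* library. Within AT4G04845, *pkl-1* had 18.8, 18.7 and 34.9 RPTM at chr4:2186101-2186200 and 13.9, 23.0 and 29.3 RPTM at chr4:2186201-2186300, against at most 2.79 and 2.54 RPTM in WT. At chr4:2186001-2186100 *pkl-1* had 3.97, 5.74 and 8.37 RPTM, *nrpd1-3* had 2.23, 2.97 and 3.57 RPTM, and WT had a single read in 1 library. The bin chr4:2185901-2186000 is listed but stayed at or below 4.31 RPTM in every library and was not tested. The downstream repeat of 10 bins summed to 275, 323 and 404 RPTM in *pkl-1*, 32.4, 38.7 and 26.8 RPTM in *nrpd1-3*, 20.9, 14.7 and 15.0 RPTM in *nrpe1-11* and 12.1, 28.0 and 15.4 RPTM in WT. Here *nrpd1-3* and WT overlapped. The 5′ arm, in the direction of the plus strand, held 230.4 ± 37.7 RPTM in *pkl-1* and 10.2 ± 5.66 RPTM in WT, and the 3′ arm 104 ± 29.0 RPTM in *pkl-1* and 8.29 ± 2.74 RPTM in WT (SD, n = 3 each).

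Bins within 10 kb that lie outside the repeats behaved in another way. These 11 bins summed to 69.4, 161 and 141 RPTM in *pkl-1*, 0, 4.46 and 0 RPTM in *nrpd1-3*, 32.2, 26.2 and 34.6 RPTM in *nrpe1-11* and 98.5, 104 and 96.3 RPTM in WT. The *pkl-1* and WT libraries overlapped, *nrpe1-11* lay below WT, and in *nrpd1-3* only 3 reads were found, all in replicate 2. The difference from WT on the log2(sum + 1) scale was -5.84 for *nrpd1-3* and -1.66 for *nrpe1-11* (exact two-sided permutation test, p = 0.1 and adjusted p = 0.15 for each, at the smallest p the design allows). The lower sum of *nrpe1-11* came from a pair of bins, chr4:2180301-2180400 and chr4:2180401-2180500. Without this pair the other 9 bins summed to 30.6, 24.5 and 33.1 RPTM in *nrpe1-11* and 32.3, 30.5 and 33.5 RPTM in WT, a difference of -0.13 (exact two-sided permutation test, p = 0.5), while *nrpd1-3* had no reads (-5.05, p = 0.1 by the same exact test). The pair was taken out because it had the highest WT means of the 11 bins, so the comparison of the rest is in part set by that choice. Summed over the 17 bins of both repeats, the difference from WT was 1.35 for *nrpd1-3* (p = 0.1, adjusted p = 0.15) and 0.085 for *nrpe1-11* (p = 0.7, adjusted p = 0.79) by the same exact test. With equal totals of 24-nt reads the differences over both repeats were 2.70 for *nrpd1-3* and 0.79 for *nrpe1-11*, and over the 11 other bins -5.09 for *nrpd1-3* and -0.95 for *nrpe1-11* (exact permutation test, p = 0.1 each). Here too the scaling by its construction raises both polymerase mutants relative to WT.

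**Figure D2:**
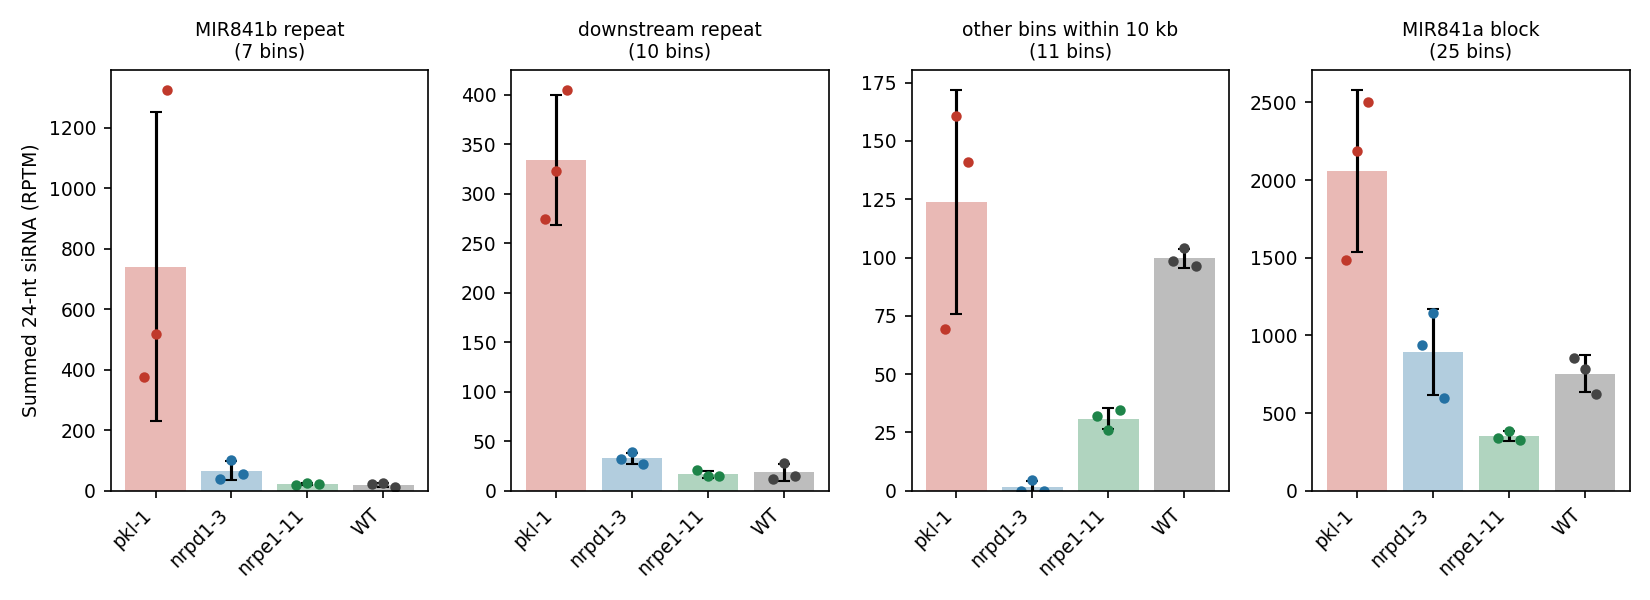
Summed 24-nt siRNA in RPTM of 4 sets of bins for *pkl-1*, *nrpd1-3*, *nrpe1-11* and WT, with bars for the mean, error bars for the SD and points for the 3 libraries of each genotype, on a separate axis for each set. In both inverted repeats *pkl-1* stood far above the other genotypes and *nrpd1-3* had signal in every library, in the other bins within 10 kb *nrpd1-3* was near 0, and in the *MIR841a* block all genotypes had signal and *pkl-1* was the highest.

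Most of the signal outside the repeats came from an intergenic pair of bins upstream. At chr4:2180301-2180400, *pkl-1* had 26.8, 64.6 and 75.3 RPTM, *nrpd1-3* had 0, 2.97 and 0 RPTM, *nrpe1-11* had 1.61, 1.64 and 1.50 RPTM and WT had 61.3, 58.5 and 54.4 RPTM. At chr4:2180401-2180500, *pkl-1* had 9.91, 28.7 and 23.7 RPTM, *nrpd1-3* had 0, 1.49 and 0 RPTM, *nrpe1-11* had no reads and WT had 4.84, 15.3 and 8.37 RPTM. These bins thus had siRNA in WT that was nearly absent in both polymerase mutants. In limma the log2 fold change over WT at the first bin was -5.22 ± 0.56 for *nrpd1-3* (SE, adjusted p = 0.00017) and -4.51 ± 0.29 for *nrpe1-11* (SE, adjusted p = 2.9e-05), and at the second bin -2.83 for *nrpd1-3* (adjusted p = 0.0021) and -3.27 for *nrpe1-11* (adjusted p = 0.00077). The call of *nrpd1-3* at the second bin was lost with equal 24-nt totals and without WT replicate 2 or 3 (limma adjusted p from 0.0124 to 0.0176).

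Weaker bins lay at some neighbouring genes. AT4G02825, a noncoding transcript, had 1 listed bin, chr4:2181901-2182000, which fell in *nrpd1-3* to no reads, against 4.04, 6.36 and 2.79 RPTM in WT (limma log2 fold change -2.38, adjusted p = 0.00021). AT4G04410, a pseudogene, had chr4:2193601-2193700, with no reads in *nrpd1-3*, 4.83, 3.27 and 9.02 RPTM in *nrpe1-11* and 3.23, 3.82 and 5.58 RPTM in WT (limma log2 fold change of *nrpd1-3* -2.36, adjusted p = 7.5e-05). AT4G04415, a protein-coding gene, had 2 listed bins, and the bin called there, chr4:2194301-2194400, had no reads in *nrpd1-3* and 1.61, 2.54 and 2.79 RPTM in WT (-1.71, adjusted p = 0.00032 in limma). The intergenic bins called were chr4:2182701-2182800, chr4:2182801-2182900 and chr4:2187901-2188000, all without reads in *nrpd1-3*, with limma log2 fold changes of -2.95, -2.32 and -2.09 (adjusted p = 8.8e-05, 1.8e-05 and 0.0045). The call at chr4:2187901-2188000 was lost with a pseudocount of 5 and without any 1 of the *nrpd1-3* libraries or WT replicate 1 (limma adjusted p from 0.0145 to 0.0278). AT4G04407, *MIR3932a*, AT4G04855, AT4G04865 and AT4G04875 had no listed bin.

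Bin by bin, limma on log2(RPTM + 1) over 56658 bins with the Benjamini-Hochberg threshold of 0.01 called 11 of the 13 window bins higher in *pkl-1*, and 3 of the 15 bins outside the window, all 3 in the downstream repeat. Of all bins tested, 1.98% were called higher and 8.2% lower in *pkl-1*. In 16 of the 17 repeat bins every *pkl-1* library was above every WT library, the exception being chr4:2185901-2186000. Because this contrast chose the locus, these counts only describe it. In *nrpd1-3*, 2 window bins and 9 bins outside the window were called, against a background of 84.6% of all bins called lower and 0.141% called higher. Of these 11 calls, 9 were lower, all of them bins outside the repeats, and 2 were higher, both in the repeats. In *nrpe1-11*, no window bin was called (0 also by edgeR's quasi-likelihood test), and 1 had an unadjusted p under 0.05, chr4:2184101-2184200 with a log2 fold change of -1.51 (limma adjusted p = 0.0105). The window count of *nrpe1-11* was 2 without WT replicate 1 and 1 without WT replicate 2. The 2 bins outside the window that were called were the intergenic pair, both lower, against 29.4% of all bins called lower and 1.02% called higher.

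The 2 kinds of bins at this locus also differed in their WT level, which limits what a fall in *nrpd1-3* could show. Of the 16 tested repeat bins, 9 had at most 3 reads in every WT library, against 2 of the 11 other bins, so a lower level could hardly have been detected in most repeat bins. Of the 11 bins outside the repeats, 9 were called lower, near the background, and their median log2 fold change over WT was -2.33, beside -2.95 for all bins. None of the tested repeat bins was called lower, and their median was 0.75, with a range from -1.02 to 2.23. The *nrpd1-3* mean was above the WT mean in 14 of the 16 repeat bins (87.5%), in none of the 11 others and in 3.88% of all tested bins. None of the repeat bins lacked reads in all *nrpd1-3* libraries, whereas 9 of the 11 other bins and 74.5% of all tested bins did. Among the 1124 bins called higher in *pkl-1* across the genome, the *nrpd1-3* mean was above WT in 3.47%, and 69.0% had no reads in *nrpd1-3*. In *nrpe1-11* the median of the 16 repeat bins was 0.079, beside -0.68 for all bins. These counts share the WT libraries, and the repeat bins come from a locus chosen for low WT and high *pkl-1* levels, so the contrast with the other bins is in part set by the choice and is only a description.

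**Figure D3:**
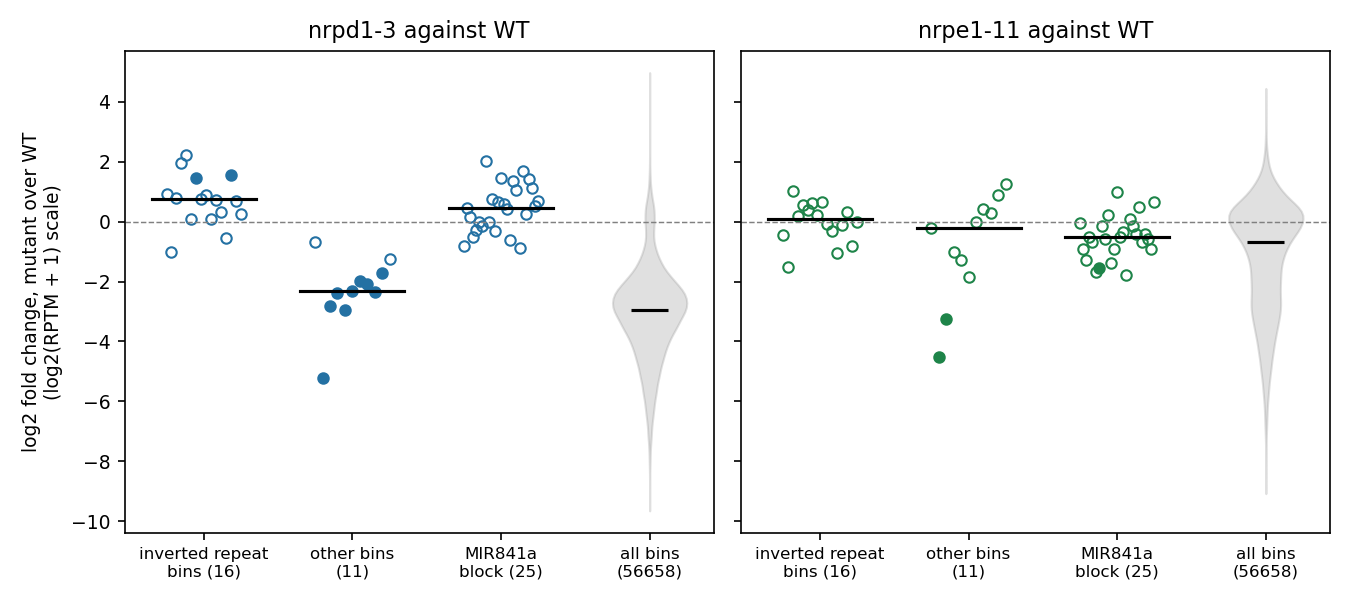
Log2 fold change of *nrpd1-3* over WT (left) and *nrpe1-11* over WT (right) on the log2(RPTM + 1) scale for the 16 tested bins in the inverted repeats, the 11 other bins within 10 kb, the 25 bins of the *MIR841a* block and, as a violin, all 56658 tested bins. Filled points are bins called by limma, black lines are medians, and in *nrpd1-3* the repeat bins sit around a median of 0.75 whereas all bins centre on -2.95.

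The 2 repeat bins called higher in *nrpd1-3* were low. The window count of *nrpd1-3* takes in chr4:2184601-2184700 and the lower bin chr4:2183901-2184000, while chr4:2186001-2186100 lies outside the window. This count was 0 without *nrpd1-3* replicate 2 or 3 and 1 without *nrpd1-3* replicate 1 or any 1 of the WT libraries. The bin chr4:2184601-2184700 had 2.23, 1.49 and 3.57 RPTM in *nrpd1-3* and 0.81, 0 and 0 RPTM in WT (limma log2 fold change 1.45 ± 0.35 SE, adjusted p = 0.0070), and chr4:2186001-2186100 had a log2 fold change of 1.56 ± 0.37 (SE, adjusted p = 0.0069). Each *nrpd1-3* library held 2 reads or fewer at these bins. The calls at these bins were lost in 9 and 8 settings, among them without any 1 of the *nrpd1-3* libraries. By edgeR's quasi-likelihood test on the recovered reads neither passed (adjusted p = 0.097 and 0.055). That test instead called both bins over mature miR841b higher in *nrpd1-3*, chr4:2184301-2184400 with a log2 fold change of 2.61 (adjusted p = 1.2e-07) and chr4:2184401-2184500 with 1.87 (adjusted p = 0.00055), which limma did not call (adjusted p = 0.061 and 0.040). At chr4:2184301-2184400 the *nrpd1-3* libraries held 6, 45 and 11 reads, most of them in replicate 2. There replicate 1 (6.70 RPTM) lay below WT replicate 3 (8.37 RPTM). At chr4:2184401-2184500 every *nrpd1-3* library was above every WT library. Both bins belong to a locus chosen with these WT libraries.

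A paralogous block lies elsewhere on chromosome 4, and it was not used to choose the locus. The repeats matched chr4:7882017-7885751, with 93.4% identity over the longest alignment of 2358 columns. The block holds *MIR841a*, *MIR5996*, AT4G06105 and parts of *UNE15* and of *HTA4*, a histone H2A gene, and it has 3 inverted repeats of its own, each with adjoining arms, 76.7% to 81.7% identical. Of the 38 bins of this block 25 are listed. They summed to 1487, 2189 and 2500.0 RPTM in *pkl-1*, 936, 1145 and 597 RPTM in *nrpd1-3*, 338, 388 and 328 RPTM in *nrpe1-11* and 855, 781 and 623 RPTM in WT. The *pkl-1* libraries lay above all WT libraries, *nrpd1-3* overlapped WT and *nrpe1-11* lay below it.

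The WT mean of the block was 753 ± 119 RPTM, compared with 38.0 ± 12.6 RPTM for both repeats at AT4G04409 (SD, n = 3), so the WT had siRNA at the paralogue and little at the pseudogene. In *pkl-1* the block averaged 2059 ± 519 RPTM, 2.73 times the WT mean, and the repeats at AT4G04409 averaged 1074 ± 575 RPTM. On the log2(sum + 1) scale the block differed from WT by 1.43 in *pkl-1* (p = 0.1, adjusted p = 0.15), by 0.21 in *nrpd1-3* (p = 0.5, adjusted p = 0.64) and by -1.09 in *nrpe1-11* (p = 0.1, adjusted p = 0.15, exact two-sided permutation tests). With libraries scaled to equal totals of 24-nt reads the differences were 1.70 in *pkl-1*, 1.58 in *nrpd1-3* (p = 0.1) and -0.36 in *nrpe1-11* (p = 0.2, exact permutation tests), so the sizes for both polymerase mutants depend on the scaling. At the strongest bin, chr4:7882901-7883000 beside *MIR5996*, the levels were 871, 1322 and 1493 RPTM in *pkl-1*, 441, 464 and 261 RPTM in *nrpd1-3*, 151, 147 and 132 RPTM in *nrpe1-11* and 517, 416 and 339 RPTM in WT. This bin rose in *pkl-1* (limma log2 fold change 1.52 ± 0.33 SE, adjusted p = 0.0015) and fell in *nrpe1-11* (-1.54 ± 0.20 SE, adjusted p = 0.00040). Its means were 1229 RPTM in *pkl-1*, 389 in *nrpd1-3*, 144 in *nrpe1-11* and 424 in WT. The block means were 2059, 892, 351 and 753 RPTM in the same order, so this bin held a large part of each block sum. How the block compares between genotypes without it was not tested.

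Of the 25 bins of the block, 6 were called higher and none lower in *pkl-1*, beside 1.98% called higher over all bins, and the median log2 fold change was 1.29, beside -0.31. The 3 bins over miR841a held 6.88% of the block's siRNA in *pkl-1* and 5.55% in WT (shares of the mean sums). The 6 bins called included chr4:7885301-7885400, which covers parts of both mature miR841a arms, with 38.7, 30.1 and 32.1 RPTM in *pkl-1* and 4.84, 1.27 and 6.98 RPTM in WT (limma log2 fold change 2.86 ± 0.50 SE, adjusted p = 0.00011). In *nrpd1-3* no bin of the block was called by limma, 2 had an unadjusted p under 0.05, edgeR's quasi-likelihood test called 5 higher, and the median log2 fold change was 0.46. Over all bins limma called 0.141% higher and 84.6% lower in *nrpd1-3*, edgeR called 113 of 56658 higher, and the limma median was -2.95. In *nrpe1-11* 1 bin was called lower, the one beside *MIR5996*, and the median was -0.52. Over all bins 29.4% were called lower in *nrpe1-11* and the median was -0.68. The count for *pkl-1* was 2 without *pkl-1* replicate 2 and 3 without *pkl-1* replicate 3 or without any 1 of the WT libraries.

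The near identity of the copies limits what uniquely mapped reads can show, since reads from sequence that both copies share were discarded. In the 17 repeat bins, 49.6% to 97.6% of the 24-mers were unique in the genome (median 67.5%), compared with a median of 74.8% in the 11 other bins and 78.0% over all listed bins. Depending on the bin, 2.44% to 50.4% of the 24-mers also occurred in the *MIR841a* block. At the bin over miR841b-5p 70.7% were unique and the remaining 29.3% were in the block. The values thus leave out siRNA from sequence that the copies share, and sequence differences between the copies, not position alone, decide which reads are counted. Whether any reads were placed at the wrong copy was not tested.

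Apart from the paralogous block, sequence matches to the window were short. In all, 205 matches lay outside the 10 kb stretch and 118 of them had a listed bin, of which 10 are described by rank and 5 fall in the *MIR841a* block. The next best were intergenic matches on chromosome 2 (chr2:2016983-2017123 and chr2:2130173-2130308), a match in AT3G59250 (chr3:21902120-21902307), one at *RAP2.6* (chr1:16264849-16264999) and an intergenic match on chromosome 3 (chr3:10841549-10841678), with 74.1% to 81.1% identity over 132 to 189 bp. The last had 62.5, 131 and 107 RPTM in *pkl-1*, no reads in *nrpd1-3*, 1.61, 1.64 and 1.50 RPTM in *nrpe1-11* and 92.8, 108 and 116 RPTM in WT, so it had siRNA in WT that was nearly absent in both polymerase mutants, like the intergenic pair upstream of AT4G04409. The match in AT3G59250 differed, with 21.2, 23.8 and 16.1 RPTM in *nrpd1-3* and 2.42, 17.8 and 12.6 RPTM in WT.

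Genes whose siRNA pattern was most like that of AT4G04409 were looked for by the Pearson correlation of log2(summed RPTM + 1) over the 12 libraries among 3486 genes with at least 20 RPTM in the genotype with the highest mean. The correlation over libraries that fall into 4 genotypes mainly reflects the order of genotypes, and it is given as a description. The 5 genes were AT2G07716, a pseudogene (r = 0.86), AT4G13495, a noncoding RNA gene (r = 0.86), *MIR5026* (r = 0.85), AT5G21125 (r = 0.81) and *MIR863* (r = 0.80). *MIR5026* lies within AT4G13495 and *MIR863* overlaps its end, so these 3 share bins. AT2G07716 has 1 listed bin, with 27.9 ± 4.20 RPTM in *pkl-1*, 21.9 ± 1.38 in *nrpd1-3*, 18.5 ± 2.24 in *nrpe1-11* and 19.8 ± 5.08 in WT (SD, n = 3 each). Its high correlation thus goes with far smaller differences between genotypes than at AT4G04409. AT4G13495 (chr4:7842967-7846774) summed to 484, 962 and 982 RPTM in *pkl-1*, 442, 565 and 386 RPTM in *nrpd1-3*, 176, 234 and 272 RPTM in *nrpe1-11* and 159, 253 and 173 RPTM in WT. Its *nrpd1-3* libraries, like those of AT4G04409, lay above all WT libraries, and its WT level was far from 0. AT5G21125 had 32.7, 50.2 and 73.9 RPTM in *pkl-1*, a single read in 1 library of *nrpd1-3* and none in *nrpe1-11* or WT, so it shared with AT4G04409 the high level in *pkl-1* and not the signal in *nrpd1-3*.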

How the data were processed

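The deposited values are a signal per 100-bp bin that the authors normalized to reads per 10000000 mapped reads (RPTM). By the paper, reads of 18 to 30 nt were mapped to TAIR10 after trimming and removal of structural RNAs, uniquely mapped 24-nt reads were counted per bin. The table holds a column for each replicate. The submitters' processing notes name CASAVA 1.8, Trim Galore 0.4.0, BWA 0.7.15, bedtools, and edgeR. All values were whole multiples of 1 read (within 0.001 reads), from which reads were recovered. In *pkl-1* replicate 1 a read is worth 0.991 RPTM.

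Bins above 5 RPTM in at least 1 library were fitted per mutant with limma 3.58.1 (lmFit, eBayes with trend, R 4.3.3) on log2(RPTM + 1), two-sided, with Benjamini-Hochberg adjustment over 56658 bins, and were called at 0.01. Because the values are normalized, edgeR 4.0.16 on recovered reads was an alternative. The fits were also run on simulated data, with changes planted only in bins of a higher WT level than any repeat bin. That simulation cannot show how well changes in low bins are called. For sums, exact two-sided permutation tests were used, of which 9 were adjusted together. Among these 9, those over repeats and the *MIR841a* block were chosen after seeing the data, with the sets defined by sequence. Further exact tests, among them those with equal totals and those without the intergenic pair, were not adjusted. That pair was left out for its high WT means, not by sequence. Repeats and copies were found with blastn 2.17.0 (E under 1e-05) and folded with RNAfold 2.7.2. Sequences are from RefSeq TAIR10.1, whose chromosomes contain all bins. Named were all window bins, genes and called bins within 10 kb, the 5 most similar genes, and the 10 best sequence matches. The locus and these lists were chosen with earlier results of these data known. Replicates of a genotype differed by more than sampling noise (chi-square per bin 1.33 to 8.62). All 12 value columns were used.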

Additional observations from a re-analysis of the deposited data

How the results depend on the processing

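The order of genotypes at the locus held under most settings, and the counts of low bins did not. The difference of *pkl-1* from WT in the window was 4.71 on the log2(sum + 1) scale, 3.00 over all bins within 10 kb and 3.90 without the bin of miR841b-5p (chosen after seeing the data). Over all bins within 10 kb the differences of *nrpd1-3* and *nrpe1-11* had the other sign, -0.51 and -0.96, because these sums include the bins outside the repeats. The window differences ranged from 4.29 to 5.03 for *pkl-1*, 0.95 to 1.52 for *nrpd1-3* and -0.055 to 0.23 for *nrpe1-11* when 1 library was left out. The value for *nrpe1-11* was -0.013 without its replicate 3, -0.0077 without WT replicate 1 and -0.055 without WT replicate 3, and over both repeats -0.11 without WT replicate 3. Differences over both repeats, the other bins and the *MIR841a* block were tried under settings chosen after seeing the data and otherwise kept their signs.

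Called window bins numbered 5 for *pkl-1* with a pseudocount of 0.1. For *nrpd1-3* they numbered 1 with a pseudocount of 0.1, 0 with 5, 1 with the filter of 3 libraries and 8 after quantile normalization. For *nrpe1-11* they numbered 1 with a pseudocount of 0.1, the filter of 3 libraries, quantile normalization or a threshold of 0.05. Leaving out 1 library gave 9 to 10 calls for *pkl-1*, 0 to 1 for *nrpd1-3* and 0 to 2 for *nrpe1-11*. Outside the window quantile normalization gave 4 calls for *nrpd1-3*. With it, 8 bins within 10 kb that fell in *nrpd1-3* had changes of 0.29, 0.31, 0.015, 0.33, 0.50, 0.44, 0.33 and 0.65. The value of 0.50 is that of the window bin chr4:2183901-2184000. Quantile normalization gives all libraries the same distribution, by its construction. Of the 253 values of the bins called, 211 kept their call, 34 lost it with the same sign and 8 lost it with the other sign. In the *MIR841a* block, under settings chosen after seeing the data, *pkl-1* had 2 higher bins with a pseudocount of 0.1, 10 with equal 24-nt totals, 13 after quantile normalization, 12 at a threshold of 0.05 and 2 to 7 without 1 library. Over all 56658 bins *pkl-1* had 354 higher with a pseudocount of 0.1, 2232 with equal totals, 3377 after quantile normalization and 2308 at 0.05. The block held 1 higher bin for *nrpd1-3* with a pseudocount of 5, 8 with equal totals, 19 after quantile normalization, 2 in the joint fit, 2 at 0.05, 5 by edgeR and 0 to 2 without 1 library. Over all bins *nrpd1-3* had 107 higher with a pseudocount of 5, 1346 with equal totals and 4288 after quantile normalization. It had 72 in the joint fit, 310 at 0.05 and 113 by edgeR. For *nrpe1-11* the block held 2 lower bins with a pseudocount of 5, 0 with equal totals or quantile normalization, 2 in the joint fit, 3 at 0.05, 3 by edgeR and 1 to 2 without 1 library. Over all bins *nrpe1-11* had 18132 lower with a pseudocount of 5, 12702 with equal totals and 10439 after quantile normalization. It had 19088 in the joint fit, 21074 at 0.05 and 18413 by edgeR. The cause of these shifts was not tested.

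Deviations of same-numbered mutant and WT libraries correlated at -0.0087 to 0.17, and those of differently numbered ones at -0.099 to 0.035. The highest value was that of *pkl-1* replicate 1 with WT replicate 1, so a weak pairing by replicate number is possible. With the replicate number as a block, the window calls numbered 11 for *pkl-1*, 2 for *nrpd1-3* and 0 for *nrpe1-11*, those outside 3, 9 and 2, and those in the *MIR841a* block 9 higher for *pkl-1*, 1 higher for *nrpd1-3* and 1 lower for *nrpe1-11*. Over all bins *pkl-1* then had 1665 higher and 6137 lower calls, beside 1124 and 4645 without the replicate number. At these depths a bin of 5 RPTM holds few reads, and single low bins are limited by counting error.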
